A study of Mus musculus with 12 samples.

Results

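The genes for vasoactive receptors, their ligand endothelin-1 and 3 regulators of G protein signaling were followed in RNA-seq of mouse mesangial cells (MMC). They are 10 of the 25230 genes counted, taken by symbol: the ligand Edn1, the receptors Agtr1a, Ednra, Ednrb, Htr2b, Avpr1a and Npr3, and the regulators Rgs2, Rgs4 and Rgs5. MMC were cultured from glomeruli of C57BL/6J wild-type (WT) mice and of the lncMGC-KO5 line, in which Cas9 editing removed a short stretch next to the transcription start of the long non-coding RNA lncMGC. The cells were serum-depleted (SD) or given TGF-β at 10 ng/ml, for 24 h, which gave 4 groups of 3 libraries: WT-SD and WT-TGF for the wild type, and KO-SD and KO-TGF for the edited line. The comparisons address how TGF-β changes gene expression in MMC, how the KO cells differ in either condition, and whether the TGF-β response depends on lncMGC. All KO libraries came from this edited line, and lncMGC is not among the genes counted, so its deletion was not checked here, and genotype and culture cannot be told apart.

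Mesangial cells are contractile cells between the capillaries of the glomerulus, and they respond to angiotensin II, endothelin-1, serotonin and vasopressin, which raise intracellular calcium through receptors coupled to G proteins of the Gq family. RGS proteins shorten such signals by speeding up GTP hydrolysis on the G protein. Natriuretic peptides act in the opposite direction through cyclic GMP, and the receptor encoded by Npr3 removes them from the surroundings of the cell.

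The libraries held 19898050 to 22827706 counts on genes. Levels are given as raw counts, as CPM, the counts scaled to library sizes adjusted by TMM, or as RPKM (CPM per kilobase of exon) where genes are compared with each other. Detection was set above a floor of 3 counts in a library, or 0.13 to 0.161 CPM. Replicate libraries varied beyond counting noise and were no repeat copies (chi-square per degree of freedom 1.33 to 5.20 over 12 pairs). KO-SD replicate 1 stood apart, with 5.20 and 4.91 against the other KO-SD libraries, where no pair without it was above 2.95. The study calls the samples of a group independent, but whether these were separate cultures or mice is not given in the sources used here, so the p-values measure the spread between these libraries, which may be in part technical. The mesangial marker Pdgfrb and the smooth muscle actin gene Acta2 were high in every library, between 285 and 385 CPM and between 1495 and 6309 CPM, whereas Thy1, often used as a mesangial marker in other rodents, had at most 1 count. Endothelial cells also make endothelin-1. Of 12 endothelial markers, the defining genes Pecam1, Cdh5, Tie1 and Emcn were at or near 0 in every library, with at most 0.183 CPM. The summed level of the 12 was 33.8 to 34.3 CPM in WT-SD, 20.9 to 23.1 CPM in WT-TGF, 17.8 to 19.2 CPM in KO-SD and 9.93 to 11.8 CPM in KO-TGF. Ehd3, the only one of them over the RPKM limit, held most of that sum and was lower with TGF-β and in KO. The sum of 8 podocyte markers was 469 to 478 CPM in WT-SD and 463 to 481 CPM in WT-TGF, against 219 to 227 CPM in KO-SD and 205 to 220.3 CPM in KO-TGF, and the 4 of them that were tested were lower in KO in both conditions. In each genotype, 1 of these 4 rose and 3 fell with TGF-β (FDR <5%), although the sum changed little. The summed level of 12 mesangial and smooth muscle markers was 2857 to 2987 CPM in WT-SD, 6043 to 6182 CPM in WT-TGF, 5044 to 5219 CPM in KO-SD and 11239 to 11328 CPM in KO-TGF. Acta2 alone had means of 1567, 2930, 3249 and 6288 CPM in these groups. With TGF-β, 5 of the 8 tested were higher and 2 lower in WT, and 6 higher and 2 lower in KO (FDR <5%). In KO against WT, 6 were higher and 2 lower in SD, and 5 higher and 3 lower with TGF-β. The shares over all genes for these comparisons are given below. The part of these marker levels in the results below was not tested.

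The members fell into 6 genes with a clear level and 4 that were almost silent. Npr3, Rgs4, Rgs5, Edn1, Htr2b and Ednra passed RPKM >1 in at least 1 library and were tested among 11528 genes. Ednra was over this limit in 9 of 12 libraries, those of every group but KO-TGF. Htr2b was over it in 8 of 12 libraries, none of them WT-SD, so its passing the limit depended on the groups where it was high. Per length of exon, Npr3 was the most abundant in all 4 groups, at 41.9 to 118 RPKM, followed by Rgs4 at 23.2 to 54.3 RPKM and Rgs5 at 9.94 to 32.5 RPKM. Edn1 ranged from 1.76 to 7.29 RPKM, Htr2b from 0.285 to 7.09 RPKM and Ednra from 0.499 to 1.55 RPKM. The plot of RPKM shows that Htr2b was the member at the lowest level in WT-SD and stood near Edn1 after TGF-β.

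**Figure D1:**
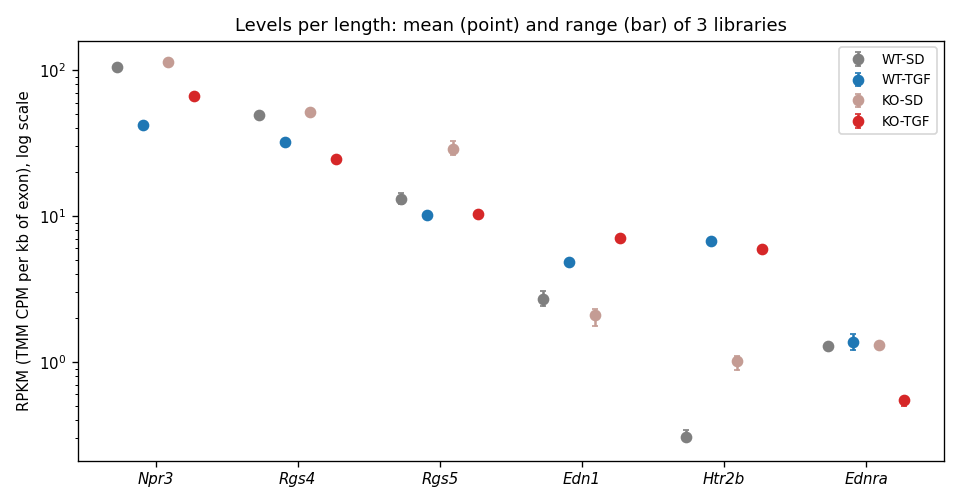
Levels of the 6 detected members in RPKM (TMM CPM per kilobase of exon, log scale) by group, with the mean of 3 libraries as a point and their range as a bar. Npr3 lies highest in all 4 groups, and Htr2b spans the widest range, from 0.308 RPKM in WT-SD to 6.76 RPKM in WT-TGF on average.

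Promoter sequences of 9 of the 10 members were found among the RefSeq promoters of GRCm38.p6, the assembly of mm10, and the 250 bases upstream of the start are shown for the pair that rose with TGF-β and for the neighboring pair that fell. Capitals mark CAGAC or its complement GTCTG, a core sequence that SMAD proteins, the mediators of TGF-β signaling, can bind.
Htr2b, chr1:86111981-86112230, minus strand: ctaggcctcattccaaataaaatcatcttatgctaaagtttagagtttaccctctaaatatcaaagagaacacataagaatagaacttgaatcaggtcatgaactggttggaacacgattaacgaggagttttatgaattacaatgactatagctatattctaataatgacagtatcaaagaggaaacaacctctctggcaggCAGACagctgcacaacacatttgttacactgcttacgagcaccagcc
Edn1, chr13:42301226-42301475, plus strand: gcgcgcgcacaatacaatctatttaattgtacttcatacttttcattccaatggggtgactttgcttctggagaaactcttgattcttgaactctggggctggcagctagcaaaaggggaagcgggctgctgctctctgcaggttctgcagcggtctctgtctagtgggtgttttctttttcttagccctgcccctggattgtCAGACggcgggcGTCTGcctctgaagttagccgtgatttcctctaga
Rgs4, chr1:169747643-169747892, minus strand: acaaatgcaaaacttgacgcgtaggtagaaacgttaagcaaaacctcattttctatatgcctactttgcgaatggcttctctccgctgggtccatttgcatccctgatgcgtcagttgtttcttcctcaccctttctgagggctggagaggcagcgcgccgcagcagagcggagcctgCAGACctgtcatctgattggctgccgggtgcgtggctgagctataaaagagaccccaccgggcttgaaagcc
Rgs5, chr1:169655251-169655500, plus strand: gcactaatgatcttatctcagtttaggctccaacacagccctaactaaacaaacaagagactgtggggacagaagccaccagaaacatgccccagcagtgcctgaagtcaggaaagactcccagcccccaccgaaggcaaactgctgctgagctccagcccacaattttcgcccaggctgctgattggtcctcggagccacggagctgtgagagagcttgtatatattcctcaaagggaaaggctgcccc
The first base of the match lies 47 bases before the start in Htr2b, 47 and 35 bases before it in Edn1 and 72 bases before it in Rgs4, and the Rgs5 window holds none. Counting both strands, CAGAC was found in 7 of the 9 member windows and in 42.2% of 32817 RefSeq windows of the same length, so a match is common. The AP-1 type motif TGANTCA was found in 1 of the 9, that of Htr2b at 163 bases before the start, and in 6.75% of all windows. TGACG, the core of a cyclic AMP response element, was found in 5 of the 9, Rgs4 among them, and in 17.7% of all windows. In these windows no matches of different motifs shared bases, and whether any factor binds there was not measured. Edn1 spans chromosome 13 from 42301476 to 42307990. Htr2b spans chromosome 1 from 86097546 to 86116231 in RefSeq, with the window upstream of an internal start. It lies within Psmd1, a proteasome subunit gene on the opposite strand with 236 CPM on average. Rgs5 (chromosome 1, 169655501 to 169695813, plus strand) and Rgs4 (169741477 to 169747642, minus strand) point towards each other, 45663 bases apart, with 0 annotated genes wholly between them.

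TGF-β changed the ligand and the receptors unequally in WT MMC. Edn1 and Htr2b rose, Npr3, Rgs4 and Rgs5 fell, and Ednra did not pass the test. In number, 2 of the 6 members rose and 3 fell in WT at FDR <5% (quasi-likelihood test of edgeR, Benjamini-Hochberg adjusted), where 36.0% of all genes tested were higher and 36.4% lower, so the number of calls by itself is near the background. The sizes were larger for some: Htr2b rose and Npr3 fell with fold change >2, as 4.14% and 5.78% of all genes did. In KO MMC, 2 of the 6 rose with TGF-β and 4 fell, against 34.9% and 39.1% of all genes. Of these, Edn1 and Htr2b rose, and Ednra, Rgs4 and Rgs5 fell, with fold change >2, as 4.37% and 9.14% of all genes did in the respective direction. Over all genes the median log2 fold change was -0.01 for WT and -0.03 for KO. In bulk RNA, fewer cells of a type and less RNA per cell cannot be told apart.

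The difference between the responses was tested as the interaction, which is the log2 response in KO minus that in WT. All 6 detected members passed it: 2 had a positive and 4 a negative value, where 8.67% of all genes tested were positive and 16.6% negative at FDR <5%, or 25.3% in either direction. For Ednra, Htr2b and Rgs5 the difference exceeded 2-fold, as it did in the negative direction for 2.39% of all genes. Without KO-SD replicate 1 that of Rgs5 was -0.99, just under 2-fold.

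**Figure D2:**
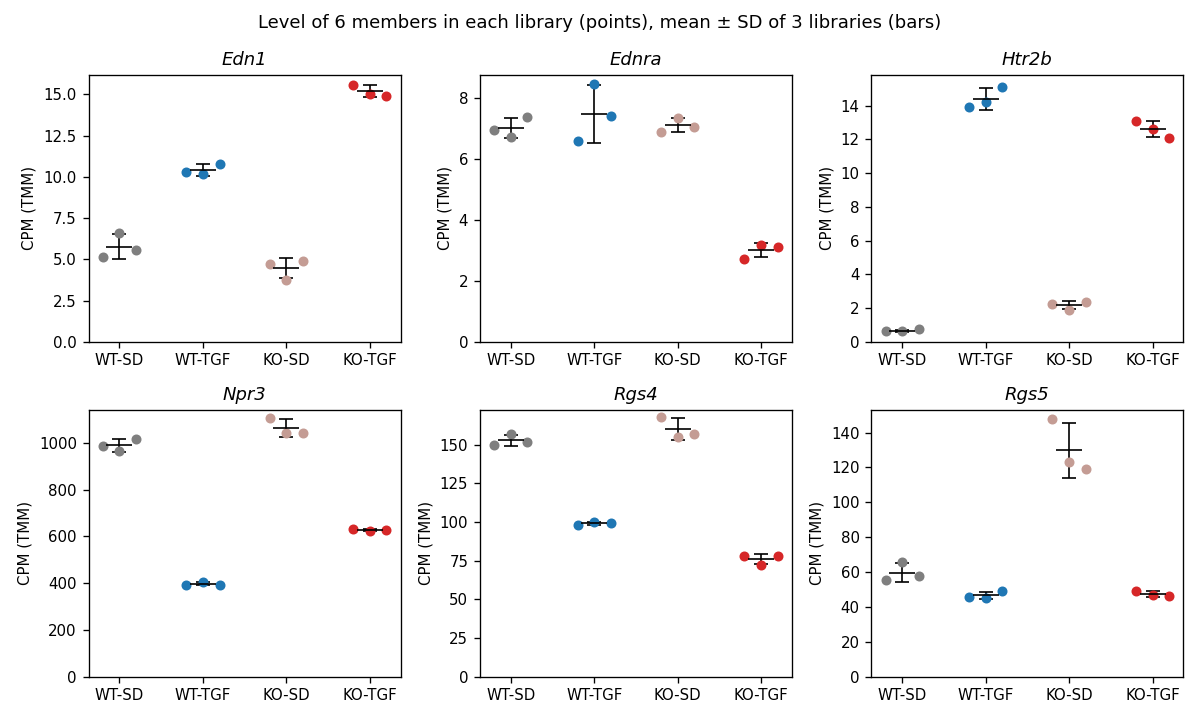
CPM of the 6 detected members in each library (points, 3 per group) with the mean and SD as bars, all axes starting at 0. Ednra is low in the 3 KO-TGF libraries alone, at 2.73 to 3.16 CPM, and Rgs5 is high in the 3 KO-SD libraries alone, at 119 to 148 CPM.

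The ligand gene Edn1, which encodes the precursor of the vasoconstrictor endothelin-1, rose with TGF-β in both genotypes and more so in KO MMC. It had 5.14, 6.59 and 5.55 CPM in the 3 WT-SD libraries and 10.3, 10.2 and 10.8 CPM in WT-TGF. In KO-SD it had 4.73, 3.76 and 4.91 CPM and in KO-TGF 15.6, 15.0 and 14.9 CPM. No pair of groups overlapped, and the order from low to high was KO-SD, WT-SD, WT-TGF and KO-TGF. With TGF-β, Edn1 rose in WT by 0.85 on the log2 scale (standard error 0.0996, adjusted p = 7.38e-09 by edgeR's quasi-likelihood test) and 1.76 in KO (standard error 0.101, adjusted p = 4.65e-16). The interaction was 0.91 (standard error 0.146, adjusted p = 1.41e-05). Before TGF-β, Edn1 was lower in KO (log2 -0.37, standard error 0.119, adjusted p = 0.00963), but without WT-SD replicate 2 this became -0.26 with adjusted p = 0.0982 and without KO-SD replicate 2 -0.26 with 0.0805. After TGF-β it was higher in KO, by 0.54 (standard error 0.0854, adjusted p = 2.72e-06).

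Ednra encodes the endothelin A receptor, which mediates constriction by endothelin-1, and its transcript fell with TGF-β in KO MMC, while in WT MMC the difference did not pass the test. The counts were 153, 155 and 162 in WT-SD and 139, 190 and 150 in WT-TGF. They were 150, 152 and 154 in KO-SD and 51, 59 and 59 in KO-TGF. The first 3 groups overlapped, with means of 7.02 ± 0.33 CPM (SD, n = 3), 7.48 ± 0.952 CPM and 7.10 ± 0.224 CPM, and KO-TGF lay apart at 3.0 ± 0.23 CPM, 42.2% of KO-SD. The log2 fold change in KO was -1.24 (standard error 0.128, adjusted p = 4.66e-10 by edgeR's quasi-likelihood test), the difference of KO-TGF from WT-TGF was -1.32 (standard error 0.127, adjusted p = 2.27e-10), and the interaction was -1.34 (standard error 0.165, adjusted p = 1.71e-07). In WT the change was 0.10 (standard error 0.102, adjusted p = 0.401) and between KO-SD and WT-SD 0.02 (standard error 0.103, adjusted p = 0.906), and the sign of both turned to -0.06 when libraries were scaled by size alone. In KO-TGF the ligand and its receptor thus stood at opposite ends of their ranges, Edn1 at its highest and Ednra at its lowest.

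Ednrb, the gene for the endothelin B receptor, which also clears endothelin-1, had 2, 1 and 0 counts in WT-SD, and in each of the other groups 1 library with 1 count and the others with 0. All 12 libraries were under the floor, and a difference between groups was not detectable at this depth. The other genes of the endothelin list, fixed as a list of 5, were tested for 2: Ece1, which encodes the enzyme that cuts the precursor to endothelin-1, had means of 69.7 CPM in WT-SD, 92.1 CPM in WT-TGF, 73.5 CPM in KO-SD and 95.9 CPM in KO-TGF. Ece1 rose with TGF-β by a log2 value of 0.40 in WT and 0.38 in KO (adjusted p = 1.26e-11 and 3.37e-11, edgeR), and was named after its values were seen. The other was Mme, an endopeptidase that degrades endothelin and natriuretic peptides. Mme had 22.8 ± 0.996 CPM in WT-SD, 3.69 ± 0.684 CPM in WT-TGF, 1.81 ± 0.449 CPM in KO-SD and 0.302 ± 0.203 CPM in KO-TGF (SD, n = 3). Only in WT-SD was Mme over the RPKM limit (mean 1.97 RPKM), so its passing the limit depended on the group where it was high. It was lower in KO in SD, with a log2 fold change of -3.64 (standard error 0.128), and with TGF-β it fell in both genotypes, with -2.63 in WT (adjusted p = 2.47e-19) and -2.57 in KO (adjusted p = 9.7e-08, edgeR; -3.23 without KO-TGF replicate 2), so that the groups followed one another without overlap. Macrophage markers, 13 genes, moved alongside, with a summed level of 37.6 to 40.9 CPM in WT-SD, 20.3 to 24.3 CPM in WT-TGF, 8.18 to 9.77 CPM in KO-SD and 2.35 to 2.68 CPM in KO-TGF, Adgre1 being at 0 in all KO libraries. The sum of 10 tubular markers was 75.9 to 81.6 CPM in WT-SD and 22.9 to 25.9 CPM in WT-TGF. It was 24.6 to 26.0 CPM in KO-SD and 12.7 to 13.8 CPM in KO-TGF. In SD, 1 of the 3 tubular markers tested was higher and 2 lower in KO (FDR <5%, all genes 30.9% and 25.2%). With TGF-β all 3 were lower in KO (all genes 27.8%). The part of the macrophage and tubular markers in the results on Mme and other peptidases was not tested.

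The serotonin receptor gene Htr2b, whose product couples to Gq, had the largest rise with TGF-β of the members. WT-SD libraries held 14, 14 and 16 counts, and WT-TGF libraries 294, 318 and 306. KO-SD libraries held 49, 39 and 51 counts and KO-TGF libraries 244, 236 and 231. No groups overlapped in CPM: the means were 0.657 ± 0.0631 CPM in WT-SD, 2.16 ± 0.242 CPM in KO-SD, 12.6 ± 0.464 CPM in KO-TGF and 14.4 ± 0.638 CPM in WT-TGF (SD, n = 3). TGF-β raised Htr2b 21.7-fold in WT (log2 4.44, standard error 0.138, adjusted p = 9.68e-23 by edgeR's quasi-likelihood test) and 5.82-fold in KO (log2 2.54, standard error 0.113, adjusted p = 8.08e-19), with an interaction of -1.90 (standard error 0.226, adjusted p = 8.66e-08). The smaller fold in KO came with a higher level before TGF-β, 3.27-fold above WT-SD (log2 1.71, standard error 0.212, adjusted p = 3.88e-08), and a level after TGF-β that was 87.6% of that in WT (log2 -0.19, standard error 0.0781, adjusted p = 0.0395). The last call was lost with DESeq2 (adjusted p = 0.195), with no filter (0.0808) and without any of 5 of the 6 TGF libraries (adjusted p 0.0631 to 0.179). Psmd1, which covers Htr2b on the other strand, had mean levels of 201 CPM in WT-SD, 268 CPM in WT-TGF, 206 CPM in KO-SD and 270.2 CPM in KO-TGF, and the counting was by strand.

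Of the 7 other genes of the serotonin list, 3 were tested, and 2 of them rose and 1 fell in each genotype with TGF-β. For this and the other lists, the shares over all genes were 36.0% rising and 36.4% falling in WT, and 34.9% and 39.1% in KO. Htr1b, a receptor that couples to Gi, had 39.5 to 40.8 CPM in WT-SD, 61.3 to 65.8 CPM in WT-TGF, 63.1 to 66.8 CPM in KO-SD and 121 to 131 CPM in KO-TGF. It rose by 0.68 in WT and 0.95 in KO (adjusted p = 7.25e-15 and 8.8e-20, edgeR), and lay above WT in KO in both conditions, by 0.71 in SD and 0.97 with TGF-β (log2). Htr2a, the Gq-coupled relative of Htr2b, had 20.9, 21.4 and 19.5 CPM in KO-SD and 39.8, 38.6 and 40.4 CPM in KO-TGF, whereas WT-SD (29.0 to 33.0 CPM) and WT-TGF (32.2 to 35.2 CPM) overlapped. Its interaction was 0.80 (standard error 0.0777, adjusted p = 1.95e-09, edgeR), opposite in sign to that of Htr2b. Maoa, the monoamine oxidase that breaks down serotonin, named after its values were seen, fell from 67.6 CPM in WT-SD to 40.8 CPM in WT-TGF, and from 83.5 CPM in KO-SD to 43.6 CPM in KO-TGF (log2 -0.73 and -0.94, adjusted p = 4.06e-16 and 4.29e-19, edgeR).

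Agtr1a, the gene for the main angiotensin II receptor of rodents, had 1 count in 1 WT-TGF library and 0 in the other 11 libraries. Its near-identical copy Agtr1b, with which reads could not be assigned where they align equally well to both, had 3 counts in all 12 libraries together, and the level of either receptor was under the floor of detection. Of the 11 other genes of the angiotensin list, 5 were tested, and in both genotypes 1 rose and 4 fell with TGF-β, where 36.4% of all genes fell in WT and 39.1% in KO. The precursor gene Agt had 198, 203 and 195 counts in WT-SD and 10, 9 and 22 in WT-TGF. It had 45, 83 and 58 counts in KO-SD and 8, 4 and 9 in KO-TGF. WT-SD lay above every other group. With TGF-β the log2 value was -3.78 for WT (standard error 0.219, adjusted p = 7.7e-16) and -2.94 for KO (standard error 0.33, adjusted p = 2.81e-09, edgeR). The interaction of 0.84 did not pass the test (standard error 0.533, adjusted p = 0.277, edgeR). For KO-SD against WT-SD the value was -1.62 (standard error 0.157), whereas KO-TGF against WT-TGF did not pass (-0.78, standard error 0.47, adjusted p = 0.165, edgeR). Agt passed the RPKM limit through the SD groups alone, where it was high. Enpep, the aminopeptidase that turns angiotensin II into angiotensin III, had 78.0 to 86.7 CPM in WT-SD, 18.4 to 21.2 CPM in WT-TGF, 49.4 to 53.4 CPM in KO-SD and 4.49 to 6.43 CPM in KO-TGF. Its log2 fold change with TGF-β was -2.07 in WT and -3.19 in KO, and the interaction was -1.12 (standard error 0.111, adjusted p = 2.71e-09, edgeR). Renin (Ren1) had 0 counts in every library.

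Avpr1a, the gene for the Gq-coupled vasopressin receptor of smooth muscle, had 1, 5 and 4 counts in WT-SD, 0, 6 and 1 in WT-TGF, 6, 7 and 5 in KO-SD and 2, 4 and 5 in KO-TGF. The KO-SD libraries did not overlap with WT-SD in CPM, but with 18 counts against 10 in all, the difference did not pass the test in the fit of all 18565 genes with a count (adjusted p = 0.261, edgeR), and no other comparison passed either. None of the 5 other genes of the vasopressin and oxytocin list was over the RPKM limit, and 4 of them were at or under the floor in every library.

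**Figure D3:**
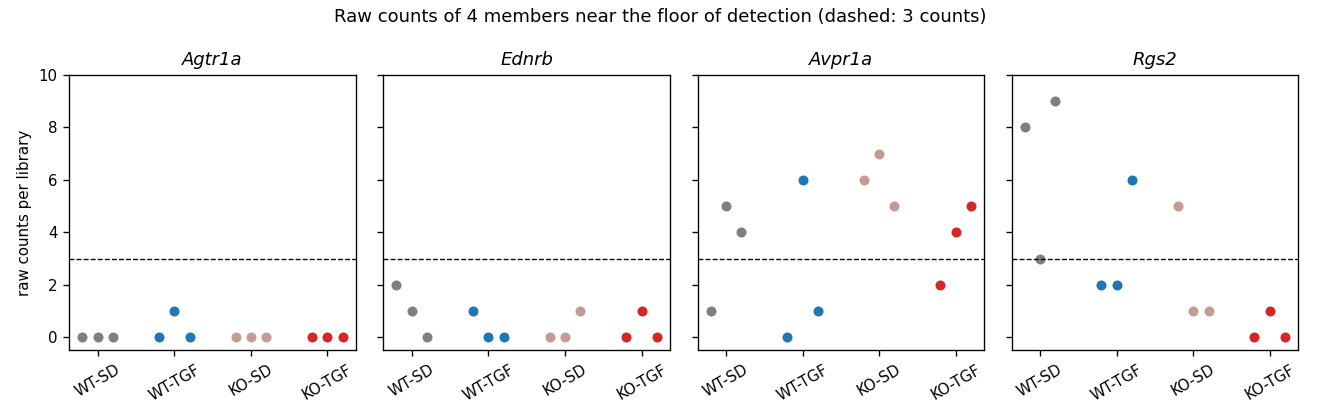
Raw counts of Agtr1a, Ednrb, Avpr1a and Rgs2 in each of the 12 libraries (points) by group, with the floor of 3 counts dashed. No library holds more than 9 counts of any of them, and all 12 libraries lie under the floor for Agtr1a and Ednrb.

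Npr3, which encodes the natriuretic peptide clearance receptor, was abundant and fell with TGF-β in both genotypes, more in WT. It had 988, 964 and 1017 CPM in WT-SD and 393, 404 and 394 CPM in WT-TGF. KO-SD had 1107, 1042 and 1041 CPM and KO-TGF 633, 625 and 627 CPM. The groups did not overlap, and WT-TGF was the lowest, at 40.1% of WT-SD, with KO-TGF at 59.1% of KO-SD. In WT the log2 value for TGF-β was -1.32 (standard error 0.0258, adjusted p = 7.71e-28 by edgeR's quasi-likelihood test) and -0.76 in KO (standard error 0.0254, adjusted p = 5e-22), the interaction was 0.56 (standard error 0.0359, adjusted p = 1.89e-13), and KO-TGF was 0.66 higher than WT-TGF (standard error 0.0259, adjusted p = 9.65e-20). In SD, KO lay 0.10 above WT (standard error 0.0249, adjusted p = 7.26e-04), a call that was lost when libraries were scaled by size alone (0.03, adjusted p = 0.328).

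Of the 11 other genes of the natriuretic peptide and cyclic GMP list, 6 were tested, of which 2 rose and 2 fell in WT, and 3 rose and 2 fell in KO. Nppb, the gene for B-type natriuretic peptide, had 3, 7 and 2 counts in WT-SD, 47, 39 and 43 in WT-TGF, 13, 16 and 16 in KO-SD and 142, 174 and 180 in KO-TGF. It rose by 3.45 in WT (standard error 0.333, adjusted p = 1.27e-10, or 4.08 without WT-SD replicate 2) and 3.64 in KO (standard error 0.183, adjusted p = 1.62e-17, edgeR) and after TGF-β was higher in KO by 2.12 (log2, adjusted p = 1.24e-13). In SD it was also higher in KO, by 1.93 (log2, standard error 0.431, adjusted p = 3.19e-04, edgeR). Its interaction of 0.19 did not pass the test (standard error 0.622, adjusted p = 0.876, edgeR). Nppb was under the RPKM limit in WT-SD (at most 0.389 RPKM), so its passing the limit depended on the groups where it was high. Only 1 of the 3 WT-SD libraries was over the floor of detection. Furin, a protease that processes natriuretic peptide and endothelin precursors, had means of 118 CPM in WT-SD, 239.9 CPM in WT-TGF, 116 CPM in KO-SD and 246 CPM in KO-TGF, and rose by 1.03 in WT and 1.08 in KO (log2). Pde5a, the phosphodiesterase that breaks down cyclic GMP, had means of 184 CPM in WT-SD, 61.2 CPM in WT-TGF, 270.2 CPM in KO-SD and 64.2 CPM in KO-TGF, and fell (log2 -1.59 and -2.07, adjusted p = 1.2e-25 and 9.04e-29, edgeR). Npr2, the guanylyl cyclase receptor for C-type natriuretic peptide, named after its values were seen, fell by 0.53 in WT and fell by 0.64 in KO (log2).

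The regulators Rgs4 and Rgs5, neighbors on chromosome 1, both fell with TGF-β in both genotypes and more in KO, but only Rgs5 differed between the genotypes by more than 2-fold in SD. Both proteins act on Gq and Gi, and Rgs5 is known as a pericyte gene. Rgs4 had 149.9, 157 and 152 CPM in WT-SD and 97.8, 100.1 and 99.5 CPM in WT-TGF. It had 168, 155 and 157 CPM in KO-SD and 78.1, 72.0 and 78.1 CPM in KO-TGF. The SD groups overlapped (log2 fold change 0.06, standard error 0.0332, adjusted p = 0.0983, edgeR), with a sign that turned to -0.01 under scaling by library size alone, and a call gained with the CPM filter (adjusted p = 0.0445), with no filter (0.0108) and without KO-SD replicate 2 (0.0403). TGF-β lowered Rgs4 to 64.8% of SD in WT (log2 -0.63, standard error 0.0348, adjusted p = 2.68e-16) and to 47.5% in KO (log2 -1.07, standard error 0.0364, adjusted p = 7.27e-22), with an interaction of -0.45 (standard error 0.0505, adjusted p = 3.36e-08), and KO-TGF lay below WT-TGF (log2 -0.38, standard error 0.038, adjusted p = 4.83e-10, edgeR).

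Rgs5 had 55.2, 65.7 and 57.8 CPM in WT-SD and 148, 123 and 119 CPM in KO-SD. With TGF-β it had 45.8, 45.2 and 48.8 CPM in WT and 49.3, 46.8 and 46.0 CPM in KO. KO-SD stood above all other libraries, with replicate 1 the highest, and the TGF groups overlapped. Without that library the value for KO-SD against WT-SD was 1.02 (log2). Rgs5 was 2.18-fold higher in KO-SD than in WT-SD (log2 1.12, standard error 0.0593, adjusted p = 1.85e-16 by edgeR's quasi-likelihood test), fell by 0.36 in WT (standard error 0.0664, adjusted p = 2.01e-05) and by 1.45 in KO (standard error 0.0627, adjusted p = 3.58e-19), and had an interaction of -1.10 (standard error 0.0919, adjusted p = 7.56e-11). Between KO-TGF and WT-TGF the value was 0.03 (standard error 0.0701, adjusted p = 0.776), which became -0.10 when libraries were scaled by size alone.

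Rgs2, whose product acts mainly on Gq, was near the floor. Its counts were 8, 3 and 9 in WT-SD, 2, 2 and 6 in WT-TGF, 5, 1 and 1 in KO-SD and 0, 1 and 0 in KO-TGF. The group sums were 20, 10, 7 and 1 counts. In the fit of all 18565 genes with a count, Rgs2 passed the test for KO-TGF against WT-TGF, with adjusted p = 0.0463 (edgeR, where 20.3% of genes were lower), but not with DESeq2 (adjusted p = 0.1) or with a fit of the groups compared alone (0.0515). Leaving out single libraries raised the adjusted p up to 0.3, without WT-TGF replicate 3, so that this call rested on a few counts. KO-SD against WT-SD did not pass (log2 -1.38, standard error 0.669, adjusted p = 0.0873, edgeR). It did pass without WT-SD replicate 2 (adjusted p = 0.0424) and without KO-SD replicate 1 (0.0217).

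Of the 18 other RGS genes listed, 6 were tested, of which 3 rose and 3 fell with TGF-β in WT, and 2 rose and 3 fell in KO, against 36.0% and 36.4% of all genes in WT and 34.9% and 39.1% in KO. Rgs16, which also acts on Gi and Gq, had 147, 131 and 151 counts in WT-SD and 227, 209 and 264 in WT-TGF, a rise of 0.78 on the log2 scale (standard error 0.108, adjusted p = 1.74e-07, edgeR). In KO-SD it had 95, 85 and 89 counts, already below WT-SD (log2 -0.61, standard error 0.13, adjusted p = 1.85e-04, edgeR). In KO-TGF it had 87, 91 and 85 counts, below every WT-TGF library (log2 -1.24, standard error 0.12, adjusted p = 2.83e-10). The change with TGF-β in KO did not pass the test (log2 0.16, adjusted p = 0.333, edgeR), and the interaction was -0.62 (standard error 0.181, adjusted p = 0.0102, edgeR). Rgs9 had 2.31 ± 0.388 CPM in KO-SD, below WT-SD at 6.99 ± 0.634 CPM (SD, n = 3, log2 -1.59, standard error 0.138). It passed the RPKM limit through WT-SD alone (mean 1.09 RPKM), the group where it was high.

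In the comparison of the genotypes in SD, 3 of the 6 members were higher in KO (Htr2b, Npr3 and Rgs5) and 1 lower (Edn1) at FDR <5%, where 30.9% of all genes were higher and 25.2% lower. After TGF-β, 2 were higher (Edn1 and Npr3) and 3 lower (Ednra, Htr2b and Rgs4) in KO, where 27.3% were higher and 27.8% lower. Rgs2 is a further lower member from the fit of all genes, which makes 4. Htr2b and Rgs5 in SD and Ednra with TGF-β differed with fold change >2, as 3.2% of genes did upwards in SD and 4.68% downwards with TGF-β. For Edn1 and Htr2b the genotype difference had opposite signs in SD and with TGF-β, but the smaller value of each, Edn1 in SD and Htr2b with TGF-β, lost its call under the alternatives given with these genes. The plot of log2 fold changes sets the responses and the genotype differences of each member side by side, and the groups behind them are shared between the comparisons.

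**Figure D4:**
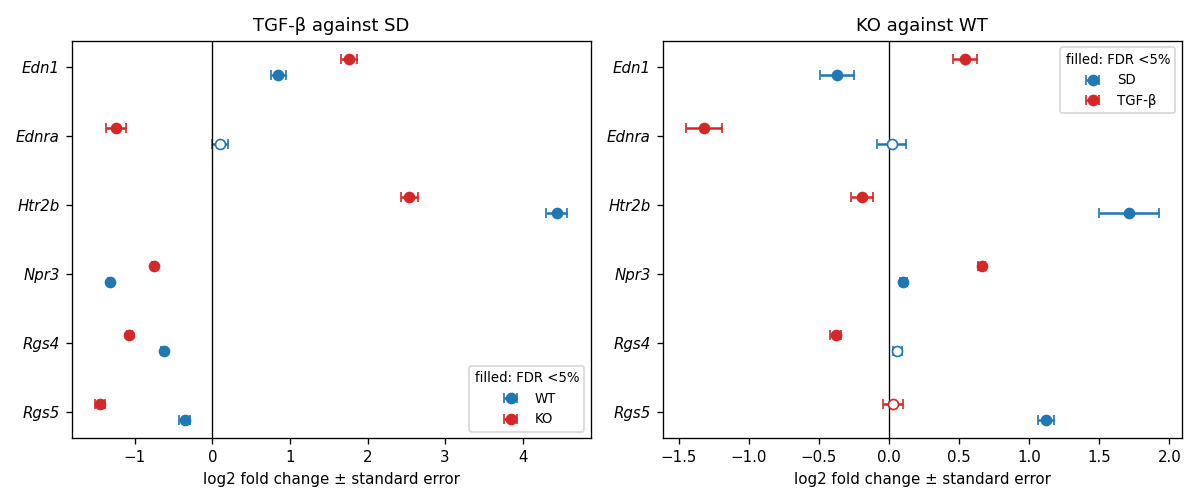
Log2 fold changes (edgeR) with standard errors of the 6 detected members, with TGF-β against SD on the left (blue WT, red KO) and KO against WT on the right (blue SD, red TGF-β), filled where FDR <5%. On the left Edn1, Rgs4 and Rgs5 lie further from 0 in KO and Htr2b and Npr3 further from 0 in WT, and on the right Htr2b and Rgs5 differ mainly in SD and Ednra and Npr3 mainly with TGF-β.

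Around the members, 110 other genes of 8 lists (angiotensin, endothelin, serotonin, vasopressin, natriuretic peptide, RGS, G protein effectors and other vasoactive receptors) were counted, of which 57 were tested, and 28 were at or under the floor in every library, 8 of these with no count at all. With TGF-β, 22 of the 57 rose and 28 fell in WT, and 20 rose and 28 fell in KO. These are 38.6% and 49.1% of the 57 in WT and 35.1% and 49.1% in KO, beside 36.0% and 36.4% of all genes in WT and 34.9% and 39.1% in KO, with median log2 fold changes of -0.07 and -0.11 beside -0.01 and -0.03 over all genes tested. Between KO and WT, 18 were higher and 24 lower in SD and 15 higher and 24 lower with TGF-β, with medians of -0.02 and -0.05. In SD these are 31.6% and 42.1%, beside 30.9% and 25.2% of all genes, and with TGF-β 26.3% and 42.1%, beside 27.3% and 27.8%. The interaction was positive for 8 and negative for 15 of the 57, beside 8.67% and 16.6% of all genes. The G protein subunit Gnaq, which carries the signal of the Gq-coupled receptors above, stayed between 215 and 229.6 CPM in all 12 libraries and passed no comparison (edgeR, smallest adjusted p = 0.0969). Its relative Gna11 had group means from 149 to 180.1 CPM and differed by small values that passed between groups (edgeR, largest adjusted p = 5.12e-04). It fell with TGF-β (log2 -0.14 in WT and -0.11 in KO) and was higher in KO (0.13 in SD and 0.16 with TGF-β). Its interaction of 0.03 did not pass (adjusted p = 0.618, edgeR). Gnaq and Gna11 were named after their values were seen. Of 21 effector genes tested, 6 rose and 12 fell in WT, and 7 rose and 10 fell in KO (all genes 36.0% and 36.4% in WT, 34.9% and 39.1% in KO). Among them Itpr3, a calcium release channel, was higher in KO in SD (138 against 86.7 CPM, log2 0.68, standard error 0.0402) and with TGF-β (169 against 114 CPM, log2 0.56, standard error 0.039). Its interaction of -0.11 did not pass the test (standard error 0.056, adjusted p = 0.149, edgeR). The protein kinase C gene Prkcd had an interaction of 0.26 (standard error 0.0525, adjusted p = 2.45e-04, edgeR).

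Among 14 tested genes for other vasoactive receptors, 7 rose and 5 fell with TGF-β in WT, and 4 rose and 7 fell in KO (all genes 36.0% and 36.4% in WT, 34.9% and 39.1% in KO). The calcitonin receptor-like receptor gene Calcrl, whose product binds the vasodilators adrenomedullin and CGRP, had 47.1, 44.8 and 45.2 CPM in WT-SD and 13.0, 13.2 and 11.6 CPM in WT-TGF. It had 91.2, 72.6 and 73.6 CPM in KO-SD and 5.57, 5.13 and 5.36 CPM in KO-TGF. The groups did not overlap, KO being the highest in SD and the lowest with TGF-β, and the log2 fold change was -1.86 in WT and -3.88 in KO, with an interaction of -2.03 (standard error 0.136, adjusted p = 5.32e-13, edgeR). F2rl2, which encodes a protease-activated receptor, had 2, 8 and 5 counts in WT-SD and 179, 167 and 153 in WT-TGF. It had 2, 2 and 4 counts in KO-SD and 55, 47 and 65 in KO-TGF, and the log2 difference of KO-TGF from WT-TGF was -1.40 (standard error 0.138, adjusted p = 4.41e-10). Its interaction of -0.58 did not pass the test (standard error 0.713, adjusted p = 0.617, edgeR). F2rl2 passed the RPKM limit through the TGF groups alone, where it was high. The sphingosine-1-phosphate receptor gene S1pr1 fell from 8.10 CPM in WT-SD to 1.65 CPM in WT-TGF (log2 -2.29) and from 11.4 CPM in KO-SD to 3.24 CPM in KO-TGF (log2 -1.81), with an interaction of 0.49 that did not pass the test (standard error 0.213, adjusted p = 0.0975, edgeR). S1pr3 had the same interaction value, 0.49, which passed (standard error 0.0898, adjusted p = 8.86e-05), and P2ry6, a Gq-coupled nucleotide receptor, one of -0.80 (standard error 0.14, adjusted p = 5.07e-05). The adenosine receptor gene Adora2b was higher in KO-SD than in WT-SD, with 5.98 ± 0.701 against 2.84 ± 0.285 CPM (SD, n = 3, log2 1.08).

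**Figure D5:**
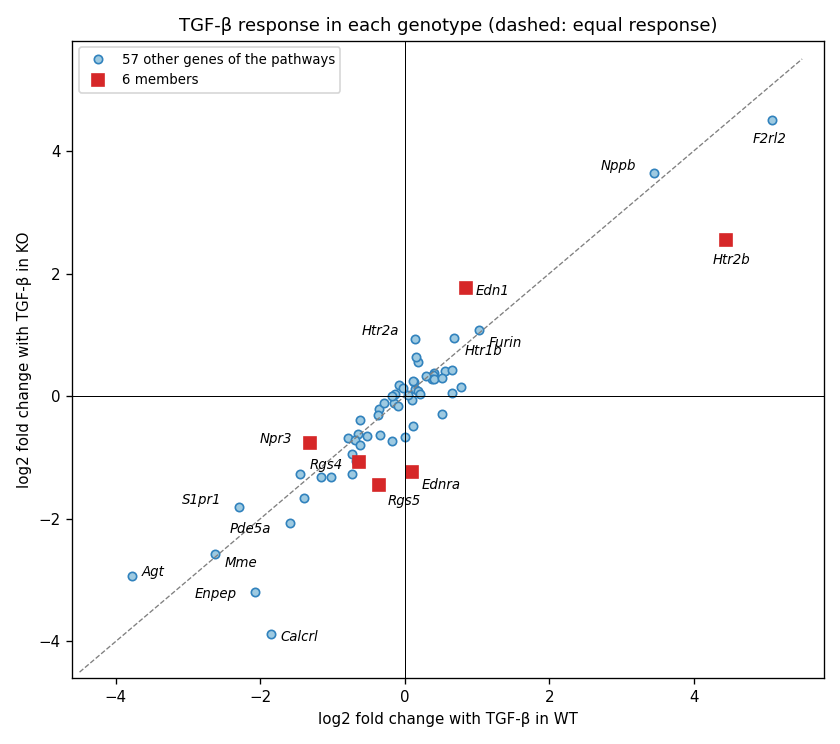
Log2 fold change with TGF-β in WT (x axis) and in KO (y axis) for the 6 detected members (red squares) and 57 other genes of the 8 lists (blue circles), with equal response dashed. Edn1 lies above the dashed line and Htr2b, Ednra and Rgs5 below it, as does Calcrl at -1.86 and -3.88, and the SD and TGF groups behind each axis are separate libraries.

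The genes with a pattern most like each member were found by the root mean square (RMS) difference of log2 CPM over the 12 libraries, after centering each gene on its mean, among all genes tested. For Ednra they were Cables1 (RMS 0.149) and Fas (0.188), for Htr2b C1qtnf3 (0.278) and Klhl33 (0.286), and for Npr3 Ppm1h (0.129) and Man2a1 (0.132). For Edn1 they were Msmo1 (0.12) and Mtus1 (0.131), for Rgs4 Epdr1 (0.0677) and Acadsb (0.069), and for Rgs5 Incenp (0.0903) and Plk4 (0.128). These distances compare with SDs over the libraries of 0.545 for Ednra, 1.79 for Htr2b, 0.571 for Npr3, 0.699 for Edn1, 0.448 for Rgs4 and 0.606 for Rgs5. C1qtnf3, which encodes a secreted protein, had means of 9.57 CPM in WT-SD, 153 CPM in WT-TGF, 18.1 CPM in KO-SD and 108 CPM in KO-TGF. Incenp and Plk4 are genes of cell division, and Incenp had a mean of 33.4 CPM in KO-SD, and of 11.8 CPM in KO-TGF, 12.4 CPM in WT-TGF and 16.3 CPM in WT-SD. The neighbor Rgs4 was further from Rgs5, at an RMS of 0.407. The points share libraries and depth, and the likeness is a description over 4 groups of libraries.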

How the data were processed

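Poly(A) RNA of MMC was sequenced in 12 libraries, 3 in each of 4 groups taken from the sample labels. TopHat was used by the authors to align single-end reads to mm10, and HTSeq-count to count them by strand on RefSeq genes. The deposited values are these raw counts, without normalization or filter, and reads with several alignments are not in them. The reads assigned to no gene, 22.2% to 27.4% of a library, were left out of library sizes and tests.

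The members, the 8 lists of other genes, the marker lists and the tests were chosen with earlier results of these data known. Gene symbols were matched to GRCm38.p6, and exon lengths were those of GENCODE. TMM normalization and the quasi-likelihood test were run in edgeR 4.0.16 under R 4.3.3, with Benjamini-Hochberg adjusted p-values over the 11528 genes with RPKM >1 in at least 1 library, in a single fit of the 12 libraries with a mean per group. Members under that limit come from a second fit, of the 18565 genes that had a count. Calls were made at FDR <5%, and standard errors are from the same fits. The scripts were tested on simulated data. An exact permutation test of 3 libraries against 3 cannot go below p = 0.1 and was not used.

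The genes named beside the members are, for each comparison, the lists' genes with the highest and lowest log2 fold changes, up to 3 each way, at FDR <5% and 5 CPM or more on average in the higher group, and the 2 genes most like each detected member (log2 CPM with a prior count of 2). Ece1, Maoa, Npr2, Gnaq, Gna11, Agtr1b, Ren1 and the markers were named outside this rule, after their values were seen.

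Alternatives tried were library-size scaling without TMM, DESeq2 1.42.0, the likelihood ratio test, keeping genes with CPM >1 in 3 or more libraries, keeping all genes, fitting the compared groups alone, the replicate number as a block and leaving out each library. Counting intervals and the floor cover counting error only.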

Additional observations from a re-analysis of the deposited data

Results flagged for a closer look

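The TGF-β response differed between the genotypes, by the interaction term of edgeR's fit (response in KO minus that in WT, log2), for all 6 detected members. The value was -1.34 for Ednra, -1.90 for Htr2b, 0.56 for Npr3, 0.91 for Edn1, -0.45 for Rgs4 and -1.10 for Rgs5. Among the other genes named for this comparison it was -2.03 for Calcrl, -1.12 for Enpep, 0.80 for Htr2a, -0.80 for P2ry6, 0.26 for Prkcd and 0.49 for S1pr3. At FDR <5%, 25.3% of all genes tested passed this test. No test for a single outlying value was applied to groups of 3 libraries.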

How the results depend on the processing

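Without TMM, scaling by library size moved the median log2 fold change of all genes by -0.16 with TGF-β in WT, -0.20 in KO, -0.08 between the genotypes in SD and -0.12 with TGF-β. With that scaling the sign turned for values that had not passed the test: Ednra with TGF-β in WT (-0.06) and in KO-SD against WT-SD (-0.06), Rgs4 in KO-SD against WT-SD (-0.01) and Rgs5 in KO-TGF against WT-TGF (-0.10). The small value of Ednra between KO-SD and WT-SD was also -0.00 in a fit of only the groups compared and -0.01 to 0.05 when each library was left out, and that in WT with TGF-β -0.01 to 0.19. Of 564 values of the 6 members under the alternatives, 540 kept direction and call.

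In SD, the number of members lower in KO, 1 in the report, was 0 to 2 when each library was left out, with 0 for leaving out KO-SD replicate 2 and 2 for KO-SD replicate 1. With TGF-β, the number lower in KO, 4 in the report, was 2 with DESeq2 and 2 to 4 when each library was left out, through Htr2b and Rgs2. For the other named pathway genes, the alternatives were followed only in the comparisons they were named for and for some TGF-β responses. All of these values had passed the test in the main fit, most of them with the largest fold changes. Under the alternatives, all 868 kept direction and call, which says little about values near the limit.

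Libraries with the same replicate number deviated together at most weakly: the correlation of their deviations from the group means was -0.0262 to 0.0763 over 18 pairs, none over 0.1, but 10 of 12 libraries correlated best with a library of their own number. The main fit did not take the numbers as pairs, and whether they stand for a shared origin of the libraries was not tested. With the replicate block, the number of members lower in KO with TGF-β was 3 in place of 4, since Rgs2 had an adjusted p of 0.0778, and the other numbers of members called did not change.

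The likeness to members was recomputed with scaling by library size and without each library, alternatives added after seeing the data, and in 28 of 156 cases the named gene was no longer among the 2 most alike. Depth limits Agtr1a, Ednrb, Avpr1a and Rgs2, which had at most 9 counts in a library.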
